A study of Mus musculus with 24 samples.

Results

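The 12 *b6/b6* mice of a mouse hypothalamus SAGE-Seq series were examined for transcripts whose abundance followed the share of calories that each mouse took as carbohydrate. They were found by matching the colony number in each library's column to the deposited labels, and make up 12 of the 24 mice sequenced. The share of a mouse is its intake from the carbohydrate/protein (C/P) diet divided by its total intake, both in kcal summed over the 10 d selection test, with the fat/protein (F/P) diet as the other choice. All 24 animals were non-recombinant F2 mice derived from a subcongenic line. The other 12 mice were *cast/cast* across a segment of Chr 17, where the *b6/b6* mice carry B6 alleles only, and both groups were *b6/b6* over the remaining genome, so that the 12 mice described here share a genotype by design. The authors picked the *b6/b6* mice from the tail of lowest carbohydrate intake and the *cast/cast* mice from the tail of highest intake, which narrows the range of shares in each group. After the test the mice went back to chow, and the hypothalamus of each was taken about 48 h after both diets were offered again. The share therefore describes a behaviour measured before the RNA was taken, and each mouse gave 1 library.

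The hypothalamus holds the neurons that sense leptin, insulin, glucose and fatty acids. Arcuate neurons that make *Agrp* and *Npy* promote eating and those that make *Pomc* and *Cartpt* restrain it, while lateral hypothalamic neurons that make *Hcrt* (orexin) or *Pmch* (melanin-concentrating hormone) link arousal and reward to intake. Ependymal cells with motile cilia line the third ventricle beside these neurons, and bulk RNA of the region mixes all of these cells.

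The carbohydrate share was 33.8 ± 3.51% (SD, n = 12) in *b6/b6* mice and 72.8 ± 11.3% (n = 12) in *cast/cast* mice, and the groups did not overlap. From the lowest share to the highest, the *b6/b6* mice are named here by colony number. Mouse 24541 had a share of 27.1%, mouse 26480 of 29.8%, mouse 25907 of 31.9%, mouse 25014 of 32.5%, mouse 26641 of 33.1% and mouse 24278 of 33.8%. Mouse 26546 also had a share of 33.8%, followed by mouse 26545 with 34.1%, mouse 25874 with 35.0%, mouse 24550 with 36.1%, mouse 26510 with 39.2% and mouse 24574 with 39.5%. Most mice thus lay close together, with mice 24541 and 26480 below the rest and mice 26510 and 24574 above. C/P intake was 36.4 ± 3.93 kcal (from 27.4 to 41.0 kcal), F/P intake 71.4 ± 7.19 kcal (at most 80.4 kcal) and total intake 107.7 ± 8.06 kcal. A larger share went with both more C/P and less F/P intake. The share correlated with C/P kcal (Pearson *r* = 0.74, permutation p = 0.0065, adjusted p = 0.0432; Spearman rho = 0.63, permutation p = 0.0302, adjusted p = 0.133) and with F/P kcal (*r* = -0.70, permutation p = 0.0108, adjusted p = 0.0432; rho = -0.62, permutation p = 0.0333, adjusted p = 0.133), both of which are parts of it. Without mice 24541 and 24574, the 2 farthest from the median share, these *r* were 0.52 and -0.73. The share was not detectably related to total kcal (*r* = -0.26, permutation p = 0.413; rho = -0.20, permutation p = 0.528; *r* = -0.43 without the same mice). In all, 8 such relations were computed, with C/P, F/P and total kcal, study and colony number, tag hits, total normalized counts and the first principal component, and adjusted together by the Benjamini-Hochberg method.

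**Figure D1:**
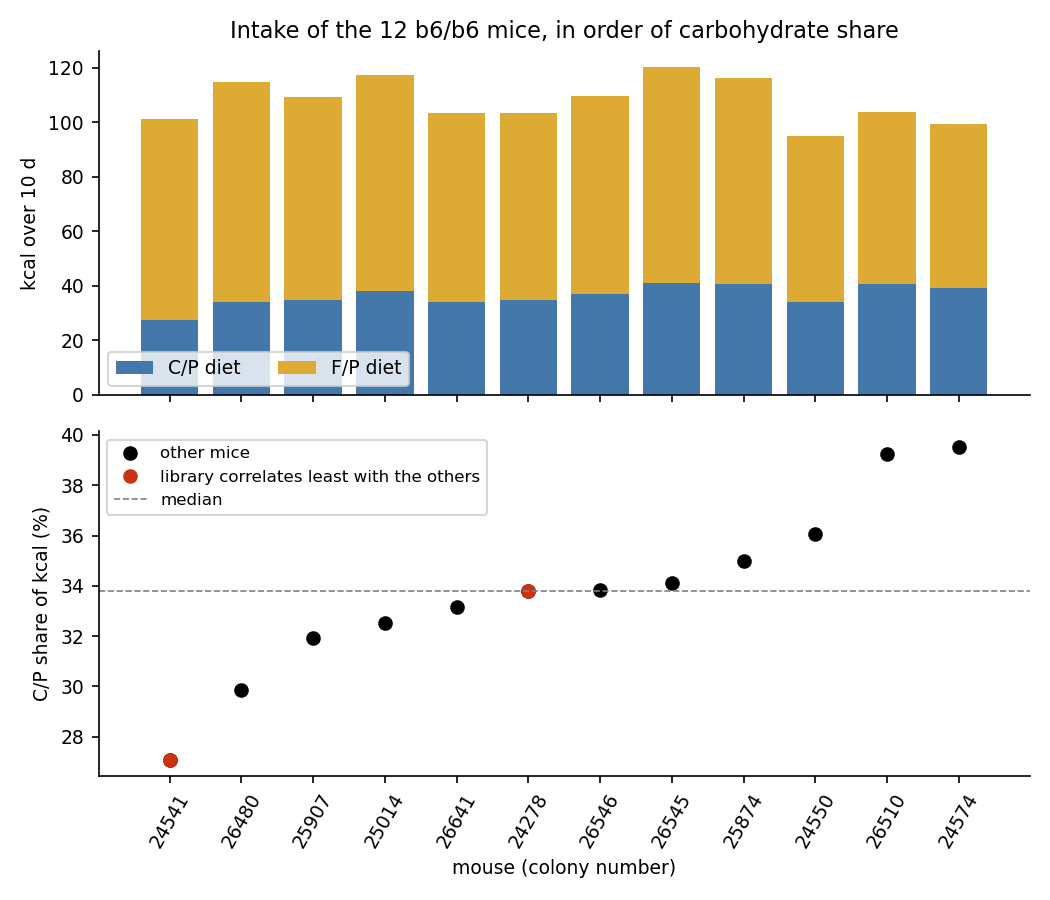
Intake of each *b6/b6* mouse over the 10 d test, with mice in order of carbohydrate share. The upper panel stacks kcal from the C/P and F/P diets, and the lower panel gives the share in percent with the median as a dashed line and the 2 libraries that correlate least with the others in red. Shares run from 27.1% to 39.5%, and the mouse with the lowest share is one of the red points.

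The libraries held 7754202 to 13082873 tag hits, and the share was not detectably related to the tag hits of a library (*r* = 0.03, permutation p = 0.930; rho = -0.04, permutation p = 0.906; *r* = -0.43 without the 2 farthest mice) or to the study number of the mouse (*r* = 0.05, permutation p = 0.865; rho = 0.12, permutation p = 0.715; *r* = -0.01 without these mice). The libraries of mice 24541 and 24278 stood apart. Their mean correlations with the other libraries were 0.868 and 0.899, against 0.925 to 0.946 for the other 10, and the first principal component, with 48.6% of the variance, gave both the most negative loadings. Mouse 24541 is also the mouse with the lowest share, so its library and its share cannot be told apart in these data. The lateral hypothalamic peptides peaked there, with 2704 normalized counts of *Hcrt* against a median of 457 and 22154 of *Pmch* against a median of 7661. *Gh*, the pituitary hormone gene, was at 467 normalized counts in this mouse and at a median of 1.41 over the 12 mice. Both libraries also held more hemoglobin and heme-synthesis transcripts, with summed levels of 3 blood genes at 3.24 and 9.49 times the median. The part of these differences in the correlations below was not tested. The main counts are given with and without mouse 24541, as is *r* for many of the named genes, in part only as a range.

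Of 13982 genes with a mean of at least 5 normalized counts in these mice, 345 (2.47%) correlated with the share at a permutation p of at most 0.01, 198 positively (1.42%) and 147 negatively (1.05%). A normalized count is the tag hits of a gene divided by the size factor of the library, and each correlation is of log2(normalized count + 1) with the share, tested by 100000 permutations of the share over the 12 mice. At p of at most 0.05 there were 1602 genes (11.5%), yet 0 genes passed a Benjamini-Hochberg adjusted p of 0.05, and the lowest adjusted permutation p was 0.389. Among 100 permuted shares the number of genes at p of at most 0.01 had a median of 55 and ran from 12 to 2478, and 9 of the 100 gave 345 or more. The correlations are therefore described as the strongest of many and not as established associations. With limma, which fits a slope per 10 percentage points of share, 393 genes (2.81%) had *P* of at most 0.01 and 1758 of at most 0.05, and the lowest adjusted *P* was 0.346. The quasi-likelihood test of edgeR on the recovered tag hits gave 463 genes at *P* of at most 0.01 (127 positive and 336 negative, against 193 and 200 with limma) and 0 at an adjusted *P* of at most 0.05, while DESeq2 gave 711 and 6, with no adjusted *P* for 5151 genes.

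Single mice carried much of the count. Without mouse 24541 there were 207 genes (1.48%) at a permutation p of at most 0.01, without mouse 24574 there were 184, without both 114, and without mouse 24278 there were 611. All 345 genes kept the sign of *r* without mouse 24541, and 73 of them kept p of at most 0.01. The kept sign is no test, since the 345 were picked at an absolute *r* of at least 0.69 with that mouse included. Without both libraries that stood apart there were 357 genes (2.55%), of which 101 were among the 345. Mouse 24541 was the lowest or the highest of the 12 mice in 226 of the 345 genes (65.5%), and in 42.9% of all genes tested. With study number as a covariate, 692 genes were called, which included all 345. The share was itself hardly related to study number (*r* = 0.05), so this setting left it almost unchanged and was no test of the 345. The 7 mice with study numbers of 251 or more gave 249 genes in an exact permutation test, a grouping chosen after seeing the data. The other 5 mice were not analysed alone.

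**Figure D2:**
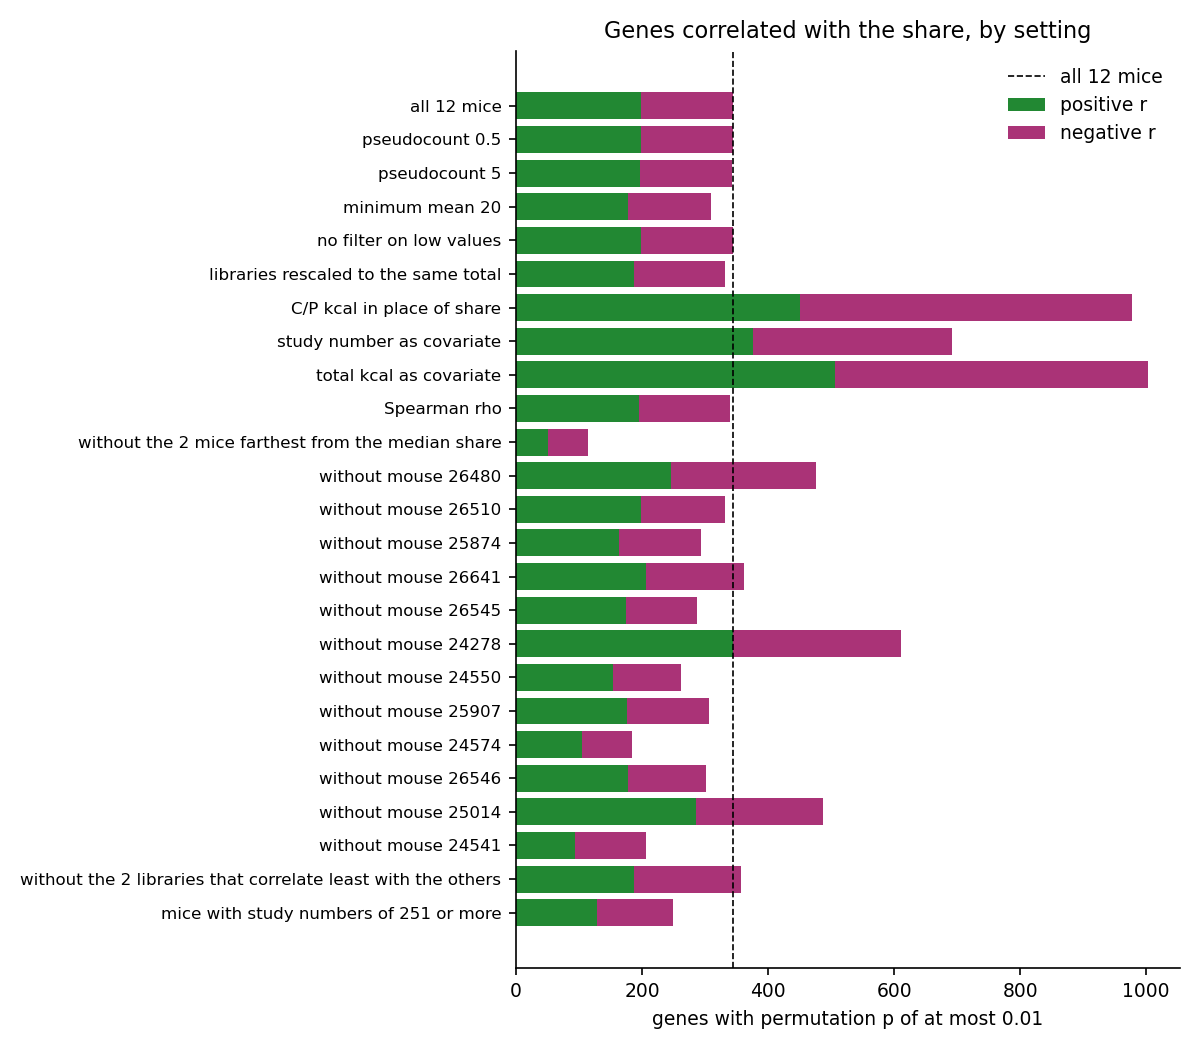
Number of genes with a permutation p of at most 0.01 for the correlation with the share, split into positive and negative *r*, under each setting tried, with the 345 genes of the 12 mice as a dashed line. The count drops to 114 without the 2 mice farthest from the median share and to 207 without mouse 24541, and reaches 1003 with total kcal as a covariate.

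The called genes were spread over the genome. Of the 331 with a single position, 15 lay on Chr 17, which is 2.38% of the 630 genes tested there, and the other chromosomes with at least 100 tested genes ranged from 1.41% (Chr 18) to 3.41% (Chr 5). The median of the mean normalized count was 181.8 in the called genes and 156.0 in all genes. The size of the slope, without regard to sign, had a median of 1.1 log2 units per 10 percentage points in the called genes and 0.44 in all genes. The lowest absolute *r* among called genes was 0.69.

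Of the genes that were higher in mice with a larger carbohydrate share, *Kifc5b*, a kinesin of the spindle, had the lowest p. Its normalized count ran from 9.79 in mouse 24541 through a median of 25.4 to 34.7 in mouse 24574, so the mice with the lowest and the highest share were also its extremes (*r* = 0.88, permutation p = 0.00014; rho = 0.84, permutation p = 0.00098). It lies at chr17:26917091-26932579 (GRCm38), and its close copy *Kifc1* could share its tags, so its level is uncertain. *Gclc*, the catalytic subunit of the enzyme that limits glutathione synthesis (chr9:77754535-77794489), ran from 387 to 1239 with a median of 801, again with mouse 24541 lowest and mouse 24574 highest (*r* = 0.84, permutation p = 0.00048; rho = 0.85, permutation p = 0.0008). Its slope was 1.32 ± 0.29 log2 units (SE) per 10 percentage points, a 2.50-fold difference. *Gtf2f2*, a subunit of the general transcription factor TFIIF (chr14:75896937-76010865), ran from 60.9 to 127.3 with a median of 89.5 (*r* = 0.84, permutation p = 0.00046; rho = 0.84, permutation p = 0.0011). *Tma16*, a factor of ribosome assembly (chr8:66476346-66486507), ran from 23.9 to 120.4 with a median of 69.9 (*r* = 0.86, permutation p = 0.00068; rho = 0.78, permutation p = 0.00441) and had the steepest slope of these genes, 1.64 ± 0.36, a 3.12-fold difference.

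The other 4 positive genes act at membranes or in protein turnover. *Snx3*, a sorting nexin of endosomes (chr10:42502054-42535369), had a lowest count of 2279, a median of 3683 and a highest of 5835 (*r* = 0.82, permutation p = 0.00081; rho = 0.82, permutation p = 0.00227). *Esyt2*, which tethers the endoplasmic reticulum to the plasma membrane (chr12:116281222-116373098), ran from 221.9 to 509.5 with a median of 364.1 (*r* = 0.85, permutation p = 0.00051; rho = 0.73, permutation p = 0.00945). *Mtmr2*, a phosphoinositide phosphatase of endosomes (chr9:13749181-13806481), ran from 352.4 to 731.7 with a median of 490.8 (*r* = 0.84, permutation p = 0.00071; rho = 0.77, permutation p = 0.00532). For these 3 genes mouse 24541 was lowest and mouse 26510, with the second highest share, was highest. *Fbxo8*, which encodes an F-box protein (chr8:56551134-56593939), ran from 71.8 to 143.6 with a median of 116.7 (*r* = 0.83, permutation p = 0.00086; rho = 0.81, permutation p = 0.00225). Mouse 24541 was the lowest mouse for all 8 of these genes. Without it their *r* ranged from 0.71 for *Fbxo8* (permutation p = 0.0137, above the threshold of 0.01) to 0.82 for *Gtf2f2*. Without the 2 mice farthest from the median share it ranged from 0.68 for *Fbxo8* to 0.78 for *Mtmr2* and *Kifc5b*. These 8 genes and the 8 negative genes that follow had the lowest p among genes that also met minima for level, rank correlation and *r* without those 2 mice. Their *r* are thus the extremes of 13982 tests, each with an adjusted permutation p of 0.389.

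Of the genes that were lower in mice with a larger share, *Tnip1*, which encodes an inhibitor of NF-κB signalling, had the lowest p of all genes. Its normalized count ran from 108.1 in mouse 24574, which had the highest share, through a median of 152.2 to 218.6 in mouse 24541, which had the lowest share (*r* = -0.90, permutation p = 9e-05; rho = -0.92, permutation p = 6e-05). It lies at chr11:54910787-54962940, and its slope was -0.73 ± 0.24 log2 units per 10 percentage points. *Adck2*, a mitochondrial kinase-like protein (chr6:39573876-39588769), ran from 65.1 in mouse 26510 to 167.5 in mouse 24541 with a median of 120.0 (*r* = -0.88, permutation p = 0.00013; rho = -0.87, permutation p = 0.00059). Its *r* was -0.85 without mouse 24541, -0.84 without the 2 farthest mice and -0.92 without the 2 libraries that stood apart. *Pex6*, an ATPase that recycles the import receptor of peroxisomes (chr17:46711463-46725541), ran from 155.6 to 556.8 with a median of 254.0 (*r* = -0.81, permutation p = 0.00073; rho = -0.78, permutation p = 0.00491). Its slope was -1.38 ± 0.33, and mouse 24541 was highest.

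Nuclear proteins were among the other negative genes. *Zfp746*, a zinc finger repressor also known as PARIS (chr6:48062395-48086593), ran from 79.1 to 200.1 with a median of 119.7 (*r* = -0.87, permutation p = 0.0003; rho = -0.85, permutation p = 0.00104). *Zfp574*, another zinc finger gene (chr7:25077205-25083492), ran from 28.0 to 89.2 with a median of 45.1 (*r* = -0.82, permutation p = 0.00105; rho = -0.79, permutation p = 0.0036), and without the 2 farthest mice its *r* was -0.59. *Wbp7*, the histone H3 lysine methyltransferase also called *Kmt2b* (chr7:30568855-30588726), ran from 184.2 to 369.8 with a median of 258.4 (*r* = -0.85, permutation p = 0.00097; rho = -0.65, permutation p = 0.0266). In all 3 mouse 24541 was highest. *Amhr2*, the receptor of anti-Müllerian hormone (chr15:102445367-102454639), was highest in mouse 26480 with 65.6 and lowest in mouse 24574 with 13.5, with a median of 26.8 (*r* = -0.84, permutation p = 0.00109; rho = -0.67, permutation p = 0.0204). *Egfem1*, a gene with EGF-like domains (chr3:29082577-29691056), ran from 12.3 to 79.4 with a median of 29.4 (*r* = -0.83, permutation p = 0.0013; rho = -0.78, permutation p = 0.0041), and had the steepest slope of the 8, -1.81 ± 0.43. Without mouse 24541 the *r* of the 8 negative genes ranged from -0.85 for *Adck2* to -0.70 for *Pex6*. The permutation p of *Pex6* and *Zfp574* was then 0.0136 and 0.0117, above the threshold of 0.01.

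**Figure D3:**
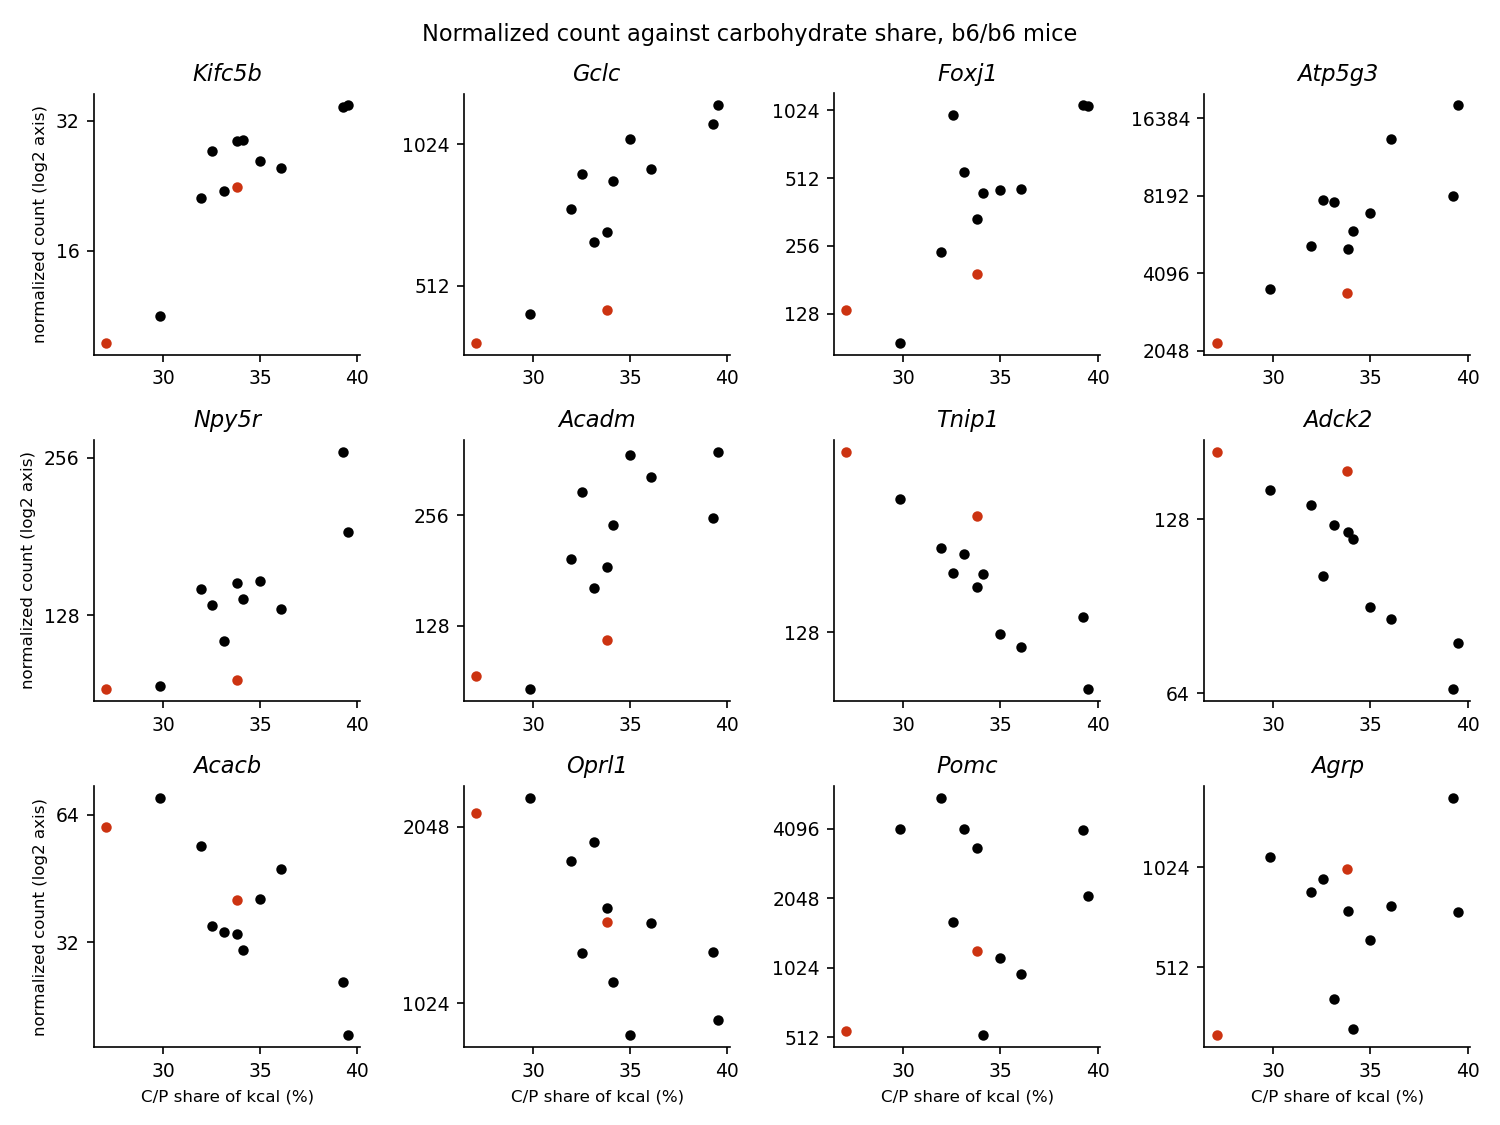
Normalized count of 12 genes (log2 axis) against the carbohydrate share of each *b6/b6* mouse, with mice 24541 and 24278 in red. *Kifc5b*, *Gclc*, *Foxj1*, *Atp5g3*, *Npy5r* and *Acadm* were higher and *Tnip1*, *Adck2*, *Acacb* and *Oprl1* lower in mice with a larger share, while no relation was detected for *Pomc* and *Agrp* (permutation p = 0.610 and 0.176).

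No relation of the classical appetite peptides to the share was detected. Of 21 appetite neuropeptide genes measured, 0 had a permutation p of at most 0.01, beside 2.47% of all genes. At p of at most 0.05 there were 2, both positive, beside 11.5% of all genes. In the list 10 had *r* above 0 and 11 below, and the median *r* was -0.23 (0.05 without mouse 24541), beside -0.02 over all genes. *Agrp* ran from 319 to 1655 normalized counts with a median of 767, lowest in mouse 24541 and highest in mouse 26510 (*r* = 0.42, permutation p = 0.176; rho = 0.05, permutation p = 0.886; *r* = 0.21 without the 2 farthest mice). *Npy* ran from 8.62 to 391.5 with a median of 29.6, and its highest level was in mouse 24278, the other library that stood apart (*r* = -0.45, permutation p = 0.143; rho = -0.50, permutation p = 0.0982; *r* = -0.12 without the 2 farthest mice). Mouse 24541 had the second highest *Npy*, 278.4, and the remaining mice had at most 38.8. *Pomc* ran from 520.9 to 5589 with a median of 1857 (*r* = 0.16, permutation p = 0.610; rho = -0.21, permutation p = 0.515; *r* = -0.21 without the 2 farthest mice). The mice thus differed widely in *Agrp* and *Pomc*, while the spread of *Npy* came largely from the 2 libraries that stood apart. A relation of these arcuate peptides to diet choice was not detectable with 12 mice. *Cartpt* came nearest, from 660.6 to 1415 with a median of 930.7 and the highest level in mouse 24574 (*r* = 0.60, permutation p = 0.0368; rho = 0.42, permutation p = 0.176; *r* = 0.28 without the 2 farthest mice).

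The lateral hypothalamic peptides were highest in mouse 24541, the mouse with the lowest share. *Hcrt* ran from 44.2 to 2704 with a median of 457.4 (*r* = -0.35, permutation p = 0.270; rho = -0.03, permutation p = 0.922; *r* = -0.17 without the 2 farthest mice), and its *r* was -0.03 without mouse 24541. *Pmch* ran from 3321 to 22154 with a median of 7661 (*r* = -0.36, permutation p = 0.258; rho = -0.13, permutation p = 0.702; *r* = -0.03 without the 2 farthest mice), and its *r* was 0.04 without mouse 24541. In both genes mouse 26510, with the second highest share, was lowest. All of *Agrp*, *Npy*, *Pomc*, *Cartpt*, *Hcrt* and *Pmch* were detected in each of the 12 mice, so the defining peptides of the labelled tissue were present.

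Among 24 receptors for appetite signals 1 gene was called, beside 2.47% of all genes. This was *Npy5r*, a receptor through which neuropeptide Y stimulates eating (chr8:66679965-66688094). It ran from 92.4 normalized counts in mouse 24541 through a median of 135.7 to 262.7 in mouse 26510, and the 2 mice with the highest shares had the 2 highest levels (*r* = 0.82, permutation p = 0.00143; rho = 0.75, permutation p = 0.00725). A rise of 10 percentage points in the share went with a 2.0-fold level, and *r* was 0.80 without mouse 24541 and 0.79 without the 2 farthest mice. The median *r* of the 24 receptors was 0.03. *Lepr*, the leptin receptor, was near the limit of detection at 2.71 to 16.8 normalized counts (median 6.77; *r* = 0.09, permutation p = 0.774; rho = 0.09, permutation p = 0.781; *r* = 0.12 without the 2 farthest mice). *Mc4r*, the melanocortin receptor on which *Pomc* and *Agrp* products act, ran from 34.6 to 119.6 with a median of 58.2 (*r* = 0.23, permutation p = 0.471; rho = 0.14, permutation p = 0.671; *r* = 0.02 without the 2 farthest mice). In the leptin and insulin pathway 1 of 24 genes was called. This was *Pik3cb*, a catalytic subunit of phosphoinositide 3-kinase (chr9:99038402-99140211), which was lower in mice with a larger share, from 59.8 in mouse 24574 to 364.3 in mouse 24541 with a median of 100.9 (*r* = -0.74, permutation p = 0.00735; rho = -0.77, permutation p = 0.00499). Its *r* was -0.56 without mouse 24541 and -0.44 without the 2 farthest mice, with permutation p of 0.0747 and 0.199. Of 6 opioid genes 1 was called, *Oprl1*, the nociceptin receptor (chr2:181715016-181720985), which ran from 902.7 to 2294 with a median of 1408 and was lower in mice with a larger share (*r* = -0.75, permutation p = 0.00493; rho = -0.76, permutation p = 0.0059; *r* = -0.60 without the 2 farthest mice). Its 2 highest levels were those of the 2 mice with the lowest shares, and its *r* was -0.68 without mouse 24541 (permutation p = 0.0194).

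Of 30 genes of fatty acid metabolism 12 had *r* above 0 and 18 below, with a median of -0.13 (0.09 without mouse 24541). Of these genes 2 were called, in opposite directions, beside 2.47% of all genes. *Acacb*, which makes the malonyl-CoA that blocks entry of fatty acids into mitochondria (chr5:114165518-114250758), ran from 19.3 in mouse 24574 to 70.1 in mouse 26480 with a median of 37.6 (*r* = -0.81, permutation p = 0.00157; rho = -0.72, permutation p = 0.0104). Without mouse 24541 its *r* was -0.79 (permutation p = 0.00393), and without the 2 farthest mice -0.68. *Acadm*, the medium-chain acyl-CoA dehydrogenase of fatty acid oxidation (chr3:153922353-153944643), ran the other way, from 86.0 in mouse 26480 to 382.0 in mouse 24574 with a median of 218.4 (*r* = 0.75, permutation p = 0.00491; rho = 0.78, permutation p = 0.00473). It had a slope of 1.59 ± 0.42, a 3.01-fold difference per 10 percentage points. Its *r* was 0.67 without mouse 24541 and 0.59 without the 2 farthest mice, with permutation p of 0.0246 and 0.0749. The 2 mice with the lowest shares thus had the lowest *Acadm*, and the mouse with the highest share had the lowest *Acacb*. Of 34 genes of glucose sensing and glycolysis 0 were called (median *r* -0.14), as were 0 of 22 cholesterol synthesis genes (median *r* 0.11).

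Of 76 genes of oxidative phosphorylation 44 had *r* above 0 and 32 below, with a median of 0.19 (0.07 without mouse 24541). Of these genes 2 were called in opposite directions, beside 2.47% of all genes. *Atp5g3*, which encodes subunit c of the ATP synthase ring (chr2:73908450-73911294), ran from 2193 normalized counts in mouse 24541 through a median of 6470 to 18342 in mouse 24574 (*r* = 0.82, permutation p = 0.00166; rho = 0.74, permutation p = 0.00782). Its slope of 1.99 ± 0.41 is a 3.97-fold difference per 10 percentage points. Its *r* was 0.73 without mouse 24541 and 0.58 without the 2 farthest mice, with permutation p of 0.0105 and 0.0748. *Ndufa11*, a complex I subunit (chr17:56717762-56724248), ran from 116.7 in mouse 24574 to 600.4 in mouse 24541 with a median of 241.8 (*r* = -0.75, permutation p = 0.0064; rho = -0.52, permutation p = 0.0843). That correlation rested on the extreme mice, since *r* was -0.58 without mouse 24541 and -0.35 without the 2 farthest mice, with permutation p of 0.0615 and 0.309. The summed level of the 76 genes was lowest in mouse 24541, at 0.84 times the median. Of 57 cytosolic ribosomal protein genes 2 were called and the median *r* was -0.07. *Rpl15* (chr14:18267823-18270986) ran from 374.1 to 896.2 with a median of 561.9 (*r* = 0.79, permutation p = 0.00255; rho = 0.74, permutation p = 0.00802; *r* = 0.67 without the 2 farthest mice). *Rpl31* (chr1:39367851-39371910) ran from 34.8 to 144.2 with a median of 82.1 (*r* = 0.73, permutation p = 0.0081; rho = 0.68, permutation p = 0.0188), with *r* of 0.54 without mouse 24541 and 0.41 without the 2 farthest mice. Mouse 24541 was lowest for both, and without it permutation p was 0.0138 for *Rpl15* (*r* = 0.71) and 0.0848 for *Rpl31*. Ribosomal protein genes have many processed copies that could share their tags.

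The marker list with the highest median *r* was that of ependyma, the ciliated lining of the ventricle. Of its 7 measured genes 6 had *r* above 0, with a median of 0.47 (0.26 without mouse 24541), and 1 was called, beside 2.47% of all genes. *Foxj1*, the transcription factor that drives the motile cilium programme (chr11:116330704-116335354), ran from 95 in mouse 26480 through a median of 447.5 to 1077 in mouse 26510. The 2 mice with the lowest shares had 133.8 and 95 normalized counts and the 2 with the highest shares 1077 and 1070 (*r* = 0.79, permutation p = 0.00219; rho = 0.71, permutation p = 0.0117), a slope of 2.57 ± 0.56 or a 5.94-fold difference per 10 percentage points. Its *r* was 0.74 without mouse 24541 and 0.68 without the 2 farthest mice, with permutation p of 0.00966 and 0.0330. The other ependymal genes followed less closely. *Dynlrb2*, a dynein light chain, ran from 6.53 in mouse 24541 to 56.3 (*r* = 0.71, permutation p = 0.0105; rho = 0.55, permutation p = 0.0672; *r* = 0.38 without the 2 farthest mice), and *Mlf1* had *r* = -0.15. The summed level of the 7 genes was 0.45 times its median in mouse 24541, 0.57 times in mouse 24278, and highest in mouse 24574 with 1677 normalized counts against a median of 874.8. *Foxj1* alone made up 1070 of the 1677, so this sum largely follows that gene. Fewer ependymal cells in a dissected sample and less RNA per cell cannot be told apart in bulk tissue.

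**Figure D4:**
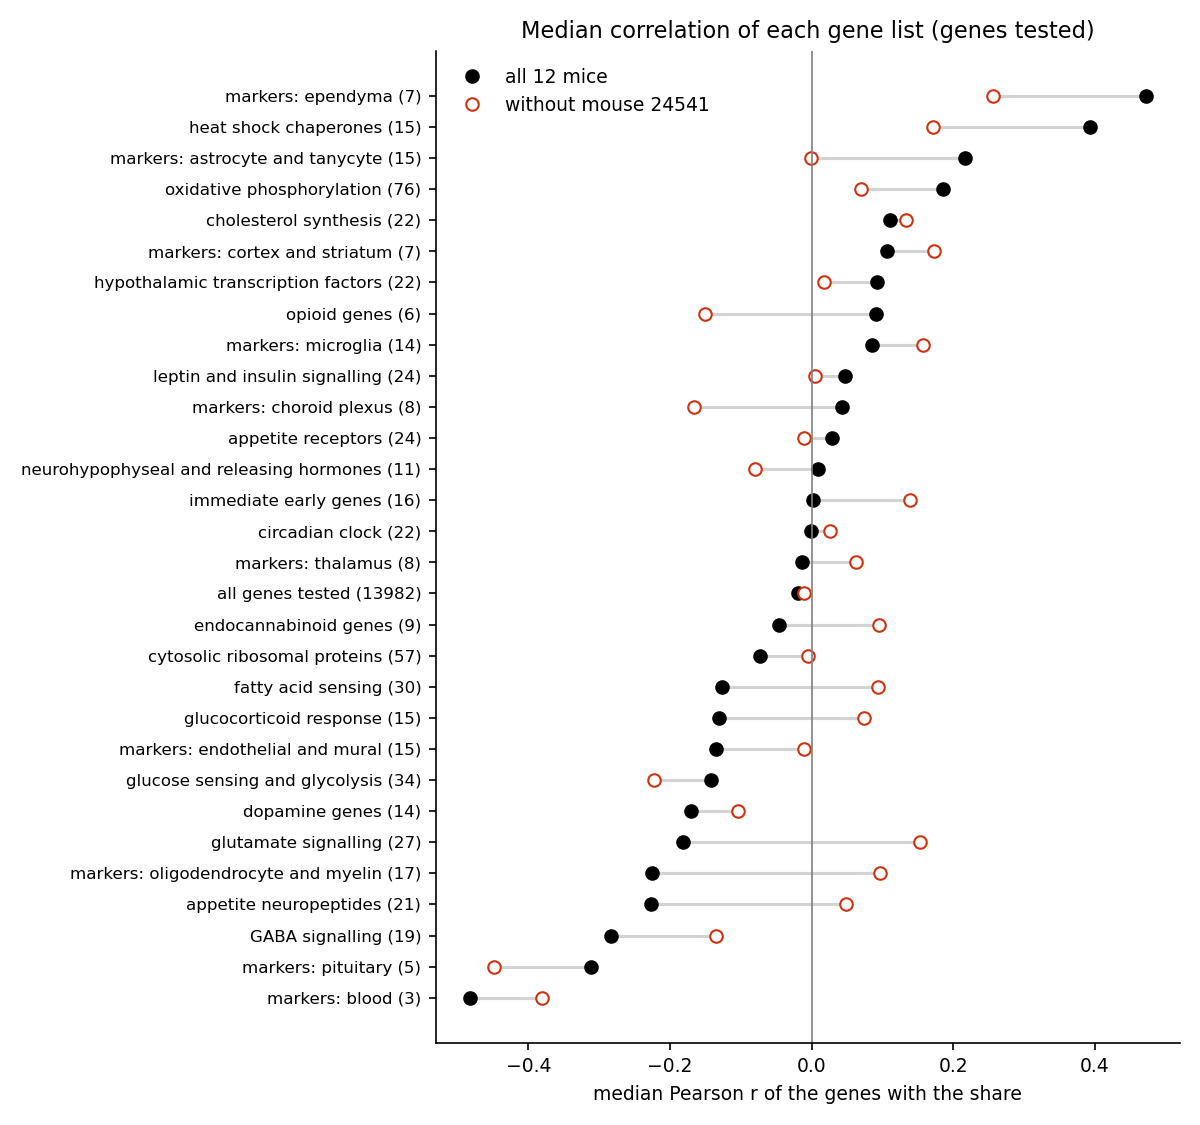
Median Pearson *r* with the carbohydrate share over the measured genes of each list, for the 12 *b6/b6* mice (filled) and without mouse 24541 (open), with the number of genes tested in parentheses. The ependymal list is highest at 0.47 and the 3 blood genes lowest at -0.48, and the median of all genes is -0.02.

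Over the 29 lists, 11 of the 555 genes measured were called (1.98%), beside 2.47% of all genes, in 8 lists. The 11th was *Jun*, an immediate early gene (chr4:95049036-95052222), which ran from 391.5 in mouse 24541 to 969.9 with a median of 774.6 (*r* = 0.73, permutation p = 0.00767; rho = 0.86, permutation p = 0.00062). Its *r* was 0.57 without mouse 24541 and 0.49 without the 2 farthest mice, with permutation p of 0.0684 and 0.151. The median *r* of the 16 immediate early genes was 0.00. Heat shock chaperones had a median *r* of 0.39 with 11 of 15 genes above 0 and 0 called, with a median of 0.17 without mouse 24541. Pituitary markers had 0 of 5 genes with *r* above 0, with a median of -0.31 (-0.45 without mouse 24541). Their summed level was 138.0 normalized counts in mouse 24574 and 142.4 in mouse 26510, the 2 mice with the highest shares. It was 1602 in mouse 24541, with the lowest share, against a median of 859.2. GABA signalling genes had a median of -0.28 (5 of 19 above 0) and dopamine genes of -0.17 (4 of 14 above 0), with 0 called in either. Oligodendrocyte genes had a median of -0.23 and glutamate signalling genes of -0.18, with 0 called in either, and both medians were above 0 without mouse 24541, at 0.10 and 0.15. In the clock, glucocorticoid response, cholesterol, endocannabinoid, hypothalamic transcription factor, releasing hormone, microglia, astrocyte and tanycyte, endothelial, choroid plexus, thalamus and cortex lists 0 genes were called, with medians between -0.13 and 0.22.

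In the 12 *cast/cast* mice, whose shares ran from 61.0 to 99.4%, 233 of 13911 genes (1.67%) correlated with the share at a permutation p of at most 0.01, 79 positively and 154 negatively, and the lowest adjusted p was 0.417. Of the 344 genes called in *b6/b6* mice that could be compared, 82 (23.8%) had an *r* of the same sign in *cast/cast* mice and 262 the opposite sign. Over all 13895 genes with an *r* in both genotypes, 42.8% had the same sign. *Tnip1* had *r* = 0.36 and *Adck2* 0.40 in *cast/cast* mice, *Gclc* -0.44, *Foxj1* -0.41, *Atp5g3* -0.24 and *Npy5r* -0.16, with permutation p from 0.147 to 0.593. *Zfp746* (*r* = -0.69, permutation p = 0.0285) and *Ndufa11* (*r* = -0.76, permutation p = 0.00383) had the sign they had in *b6/b6* mice, although *Zfp746* had *r* = 0.22 without the 2 *cast/cast* mice farthest from the median share. *Pik3cb* went the other way, with *r* = 0.70 (permutation p = 0.00936).

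The slopes were compared directly by an interaction of genotype and share in limma over the 24 mice, with the share centred in each genotype. The difference of slopes, *b6/b6* minus *cast/cast*, had *P* of at most 0.01 for 722 of 13998 genes (5.16%), 367 above and 355 below 0, and 0 genes had an adjusted *P* of at most 0.05 (2331 had an unadjusted *P* of at most 0.05, and the lowest adjusted *P* was 0.151). With libraries rescaled to the same total there were 708 genes, 263 above and 445 below 0. Among the named genes the difference had the lowest *P* for *Pik3cb*, at -1.91 ± 0.41 log2 units per 10 percentage points (SE, limma *P* = 9.03e-05, adjusted *P* = 0.151). It was 2.99 ± 0.78 for *Foxj1* (limma *P* = 0.000757), 1.55 ± 0.40 for *Gclc* (limma *P* = 0.000634), -1.15 ± 0.28 for *Adck2* (limma *P* = 0.000421) and 1.08 ± 0.40 for *Npy5r* (limma *P* = 0.0115). The named genes were picked for a strong *r* in *b6/b6* mice, so these differences are not independent of that choice. *cast/cast* shares also covered a wider range at a higher level, and the range and the genotype cannot be told apart.

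**Figure D5:**
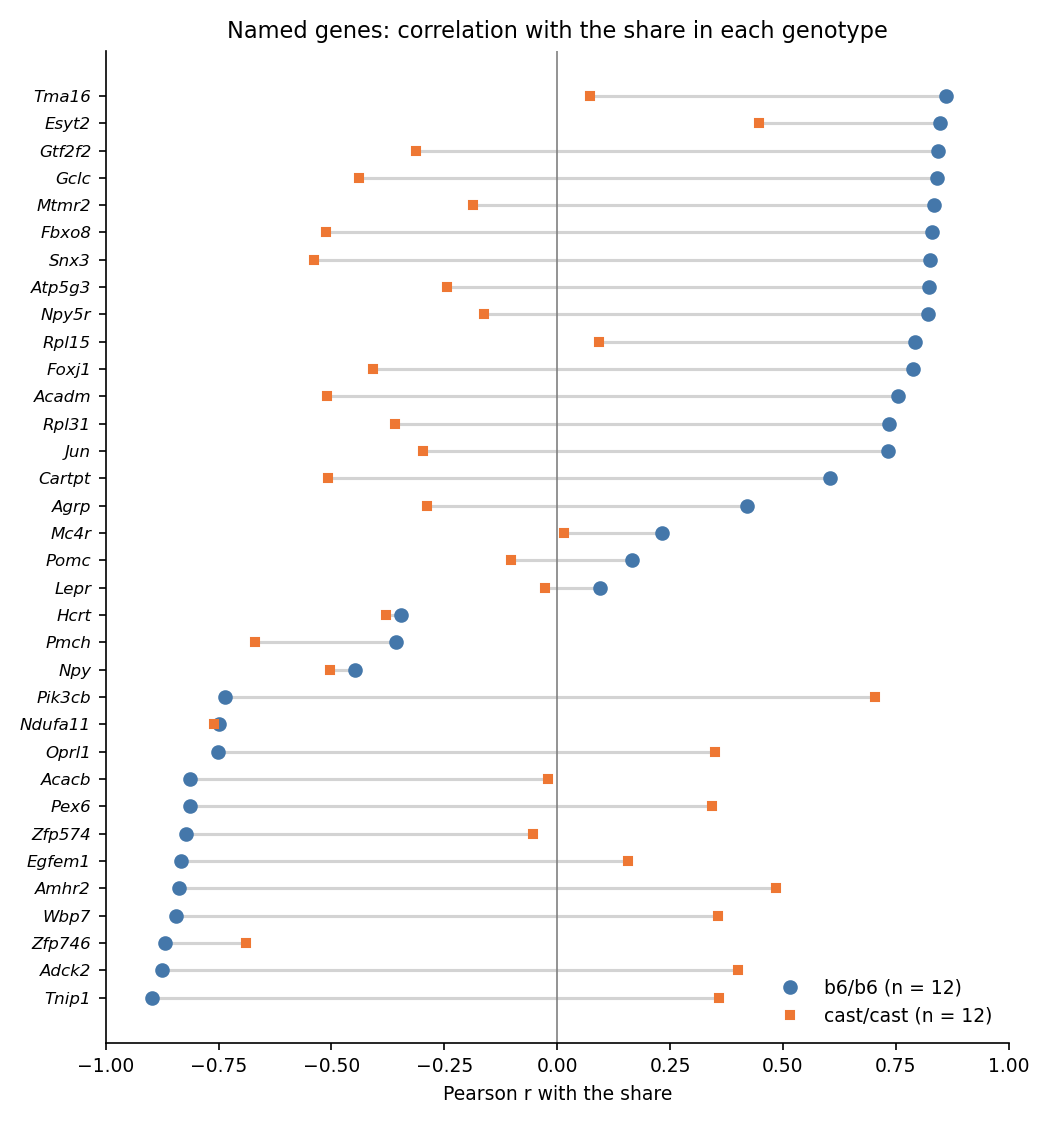
Pearson *r* of log2(normalized count + 1) with the carbohydrate share for the named genes in the 12 *b6/b6* (circles) and the 12 *cast/cast* mice (squares). *Kifc5b* is left out because its mean was below 5 normalized counts in *cast/cast* mice. Among genes called in *b6/b6* mice, *Ndufa11* (-0.75 and -0.76) and *Zfp746* (-0.87 and -0.69) have *r* of the same sign in the 2 genotypes, while *Pik3cb* (-0.74 and 0.70) lies on opposite sides of 0. Without the 2 *cast/cast* mice farthest from the median share, *Zfp746* has *r* = 0.22 there.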

How the data were processed

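SAGE-Seq of hypothalamus RNA was done on 24 mice, with 1 library per mouse. The authors aligned 3′ tags to RefSeq mRNA and GRCm38/mm10 with modified SOLiD SAGE Analysis Software and divided tag hits by DESeq size factors, and the deposited signal per gene and mouse is this normalized count. The table's other columns hold the authors' own comparison of genotypes, as deposited means of that signal, a ratio (fold change), its log2 and p-values, and were not used. Of 19529 rows, 13998 were distinct genes, used once each. Dividing each library's values by its smallest step gave whole tag hits (100% within 0.01 tag hits), 7754202 to 13082873 per mouse. Among 276 pairs of libraries the chi-square per degree of freedom was at least 14.7, so none was a copy. Tags carry no molecular identifiers.

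Members, gene lists and tests were chosen with earlier results of these data known. Pearson *r* of log2(normalized count + 1) with the share was computed for genes with a mean of at least 5 and tested by 100000 permutations of the share (two-sided, seed 1; all permutations were enumerated below 10 mice). Slopes came from limma 3.58.1 (trend) per 10 percentage points, and P was adjusted by Benjamini-Hochberg over all genes. The tests were checked on simulated tag hits, drawn independently for each gene. That check held no differences between libraries shared by many genes, which these data have. Named genes were the 8 positive and the 8 negative genes with the lowest p (mean of at least 20, rank correlation p of at most 0.05, absolute *r* of at least 0.5 without the 2 mice farthest from the median share, unnamed gene models left out), each called member of the lists, and 8 appetite genes. Positions are those of the table in GRCm38, 1-based. Alternatives were other pseudocounts, filters, scalings, covariates, measures and mice, edgeR 4.0.16 and DESeq2 1.42.0. Python 3.11.15, numpy 2.4.6, pandas 2.3.3, scipy 1.17.1, matplotlib 3.10.9 and R 4.3.3 were used.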

Additional observations from a re-analysis of the deposited data

How the results depend on the processing

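The number of genes correlated with the share at a permutation p of at most 0.01 was 345, and 309 to 345 under both other pseudocounts, both filters, rescaled libraries and Spearman rho. It rose to 978 with C/P kcal in place of the share, 692 with study number and 1003 with total kcal as covariate, and was 114 without the 2 mice farthest from the median share. Leaving out each mouse gave 184 to 611. With limma (393 genes) these counts were 1296, 696, 942, 105 and 190 to 660, the lowest without mouse 24574 or 24541 and the highest without mouse 26480 or 24278. DESeq2 gave 711, an adjusted *P* of at most 0.05 gave 0, and the 7 mice with study numbers of 251 or more, a choice made after seeing the data, gave 259. The edgeR test gave 463. The cause of these shifts was not tested. In *b6/b6* mice, the signs that turned were those of the relations and genes that follow. Without the 2 farthest mice, the *r* of the share was -0.0089 with study number, -0.055 with colony number, -0.43 with tag hits, -0.10 with total normalized counts and -0.11 with the first principal component (all mice 0.05, 0.013, 0.03, 0.22 and 0.34), and rho was -0.042, -0.028 and -0.063 for the last 3. *Pomc* had rho = -0.21, and *r* and limma slope of -0.21 and -0.98 without the 2 farthest mice, -0.19 and -0.71 without both libraries that stood apart, and -0.17 and -0.74 in the 7 mice with study numbers of 251 or more. Leaving out each mouse gave *Pomc* *r* of -0.17 to 0.31 and slopes of -0.64 to 1.06, and *Pmch* *r* of -0.55 to 0.037 and slopes of -1.27 to 0.085, with *r* = 0.062 and a slope of 0.13 for *Pmch* without both libraries that stood apart. No paired analysis was possible because the labels give no replicate numbers shared between groups. With 12 mice over a narrow range of shares, weak relations were not detectable.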

Other observations

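Other groups of genes were gathered after their members had been seen among the called genes, so their counts are a description and no evidence. Of 34 genes of the mTORC1 kinase and its amino acid branch 3 were called, beside 2.47% of all genes, with a median *r* of -0.03. *Rraga*, a Rag GTPase that recruits mTORC1 to lysosomes, ran from 1697 to 2821 normalized counts with a median of 2180 (*r* = 0.77, permutation p = 0.00289; rho = 0.78, permutation p = 0.00406; *r* = 0.71 without the 2 mice farthest from the median share). *Depdc5*, a subunit of the GATOR1 complex that restrains the Rag GTPases, was lower in mice with a larger share, from 64.6 in mouse 24574 to 194.7 in mouse 24541 with a median of 150.8 (*r* = -0.79, permutation p = 0.00239; rho = -0.64, permutation p = 0.0302; *r* = -0.62 without the 2 farthest mice). *Akt1s1*, an inhibitory subunit of mTORC1 also called PRAS40, ran from 45.7 to 109.4 (*r* = 0.75, permutation p = 0.00526; rho = 0.77, permutation p = 0.00468; *r* = 0.60 without the 2 farthest mice). Among 30 glutathione genes 2 were called, *Gclc* and *Gpx1*, a glutathione peroxidase, which ran from 324.2 to 1959 with a median of 891.3 (*r* = 0.73, permutation p = 0.00642; rho = 0.81, permutation p = 0.00218; *r* = 0.63 without the 2 farthest mice). Of 50 Rab GTPases, which direct membrane traffic, 4 were called and all were positive (*Rab1*, *Rab22a*, *Rab28* and *Rab40b*), with a median *r* of 0.14 over the family and 0.26 without mouse 24541. *Rab1* ran from 2456 to 5242 with a median of 3866 (*r* = 0.83, permutation p = 0.00101; rho = 0.76, permutation p = 0.00563; *r* = 0.72 without the 2 farthest mice). Of 324 zinc finger genes with Zfp symbols 12 were called, 5 positive and 7 negative (3.70%), with a median *r* of 0.01.

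Further genes of motile cilia were also seen among the called genes, beside 2.47% of all genes called. Of 16 genes for dyneins, tektins, radial spokes and central pair proteins, of which *Rsph1* is also on the ependymal list, 12 had *r* above 0 and 2 (12.5%) were called, *Dnaic2*, a dynein intermediate chain (11.96 to 39.6 normalized counts; *r* = 0.77, permutation p = 0.00328; rho = 0.78, permutation p = 0.00411; *r* = 0.56 without the 2 farthest mice), and *Tekt2*, a tektin (4.35 to 20.3; *r* = 0.77, permutation p = 0.00292; rho = 0.59, permutation p = 0.0491; *r* = 0.40 without the 2 farthest mice). Both were lowest in mouse 24541 and highest in mouse 24574. The other 4 cilium genes had *r* below 0. The lowest *r* was that of *Tekt5*, another tektin (*r* = -0.65, permutation p = 0.0239; *r* = -0.39 without the 2 farthest mice). It was highest in mouse 24541, with 133.8 normalized counts against a median of 14.0. Of 13 intraflagellar transport genes 7 had *r* above 0 and 6 below, and 2 (15.4%) were called, *Ift52* (*r* = 0.80, and 0.63 without the 2 farthest mice) and *Ift43* (*r* = 0.75, and 0.38 without them), both lowest in mouse 24541. The median *r* was 0.31 for the cilium genes and 0.11 for the transport genes, and 0.10 and -0.04 without mouse 24541.

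The DESeq2 test on the recovered tag hits brought 6 genes to an adjusted *P* of at most 0.05, while 5151 of 13982 genes got no adjusted *P*. None of the 6 passed that threshold with limma, edgeR or the permutation test. *Atp5g3* had the lowest (DESeq2 adjusted *P* = 0.00789, edgeR adjusted *P* = 0.293), and *Gclc* was another. *Mrap2*, an accessory protein of melanocortin receptors, ran from 250.2 normalized counts in mouse 24541 through a median of 557.6 to 2303 in mouse 26510 (DESeq2 slope 2.72 ± 0.63 log2 units per 10 percentage points, adjusted *P* = 0.0231; permutation p = 0.00168; *r* = 0.75 without the 2 farthest mice). *Herc1*, a large ubiquitin ligase, ran from 652.2 in mouse 24278 to 2889 in mouse 26510 (DESeq2 adjusted *P* = 0.0117; *r* = 0.84, and 0.81 without the 2 farthest mice). *Acn9*, an assembly factor of complex II, ran from 40.2 through a median of 192.5 to 469.0 (DESeq2 adjusted *P* = 0.0135; *r* = 0.79, and 0.63 without the 2 farthest mice). *Mex3b*, an RNA-binding protein, had a median of only 53.3 and ran from 33.9 to 446.9 in mouse 26510 (DESeq2 adjusted *P* = 0.0231; *r* = 0.76, and 0.68 without the 2 farthest mice).

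Of the 344 genes called in *b6/b6* mice that could be compared, 7 were also called in *cast/cast* mice. This is close to the 1.67% of all genes called there, so the genes that follow are a description only. *Ndufa11* and *D330022K07Rik* had the same sign in both, and *Rln1*, *Exosc6*, *Sema6d*, *4932438H23Rik* and *Pik3cb* opposite signs. *Rln1*, the relaxin gene (chr19:29331755-29334670), had *r* = 0.82 in *b6/b6* mice, where it ran from 47.5 to 155.3 normalized counts, and *r* = -0.75 in *cast/cast* mice, where it ran from 36.8 to 166.5 (permutation p = 0.00108 and 0.00587). *Sema6d*, a semaphorin, had *r* = -0.79 and 0.74 (permutation p = 0.00299 and 0.00566).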
